A study of Drosophila melanogaster with 6 samples.

Results

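The dosage compensation complex of *Drosophila melanogaster* was examined in RNA-seq of S2 cells and of S2 cells that overexpress an isoform of the corepressor SIN3. The members were taken by name and comprised the 5 proteins *msl-1*, *msl-2*, *msl-3*, *mle* and *mof* and the noncoding RNAs *roX1* and *roX2*. Each of the 7 was found in exactly 1 row of the 14540 gene rows in the deposited table. The row of *msl-2* also carries the microRNA gene *mir-4971*, which lies within its transcript.

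The control group was non-transfected S2 cells, a cultured line of hemocyte character derived from late embryos (the labels give the genotype wild type for both groups). The second group, SIN3 187HA, was S2 cells that carried, by stable transfection, a transgene for the HA-tagged shorter SIN3 isoform, driven by the copper-inducible metallothionein promoter. Both received CuSO4, for which the labels give 0.07 µM (the methods write M) and, for replicate 1 of each group, 48 h, and each group had 3 biological replicates. By the methods, the transfected line was also kept in Geneticin and penicillin/streptomycin whereas S2 medium held gentamycin, and whether the line is a single clone is not stated, so induction, transfection and selection cannot be told apart here.

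In *Drosophila* males the single X chromosome is transcribed at a raised rate, so that its output approaches that of the paired X chromosomes of females. The complex that does this assembles on MSL1 and MSL2, is guided by the roX RNAs that the helicase MLE remodels, binds active X-linked genes through MSL3, and acetylates histone H4 at lysine 16 through MOF. S2 cells are male and carry this machinery. SIN3 is the scaffold of a histone deacetylase complex, and the comparison asks which transcripts differ in level when SIN3 187HA is made in excess. By the paper's western blot, the longer isoform that predominates in S2 cells was almost fully lost from SIN3 187HA cells. Gain of the shorter isoform and loss of the longer one therefore cannot be told apart here. No sequence of a member is shown, because none was among the data used.

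The authors combined the 3 replicates of each group before deposition, so each gene has 1 value per group, in FPKM (fragments per kilobase of transcript, scaled to the number of mapped fragments). No spread between replicates could be computed, no p-value is given, and every difference below compares combined values only. Unless a plain ratio is stated, a difference is log2((FPKM in SIN3 187HA + 1)/(FPKM in S2 + 1)), which understates differences at low levels, and a negative value means a lower level in SIN3 187HA cells. *Sin3A* had 56.9 FPKM in S2 and 2319 in SIN3 187HA cells, as the labels require. FPKM summed to 817054 in S2 and 791598 in SIN3 187HA cells. The spacing of the lowest values corresponded to about 15.3 M fragments per library in S2 and 15.9 M in SIN3 187HA, an estimate that assumes equal libraries. Of 8 hemocyte markers, 7 were at or above 1 FPKM in S2 cells and *Hml* was not, with 0.520 FPKM. The summed level of the hemocyte markers was 490 FPKM in S2 and 428 in SIN3 187HA cells. *Pxn*, *NimC1* and *Cg25C* were at least 2-fold lower in SIN3 187HA while the row of *ush* was at least 2-fold higher. That row also carries the gene *MED15*, so its value, which is part of the sum, cannot be assigned to *ush* alone. The 3 muscle and 3 fat body markers were below 1 FPKM in both groups. Among neuronal markers *elav* stood at 2.39 and 6.74 FPKM, *brp* at 0.0647 and 3.06, and *nSyb* below 1 in both. The 3 germline markers were *aub* at 12.1 FPKM in S2 and 7.40 in SIN3 187HA, *vas* at 0.529 and 1.15, and *nos* at 1.15 and 0.773. The part of these differences in the values of the complex was not tested.

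Of the 7 members, 6 had levels within 2-fold of each other in the groups by the plain ratio, and *roX1*, which was near 0 in both, did not. On the scale defined above, with 1 added to FPKM, 0 of the 7 members reached a 2-fold difference in either direction, where 21.8% of the 8202 rows with a mean FPKM of at least 1 did so. With 7 genes the count cannot be read as a property of the complex, and *roX1*, at a mean of 0.191 FPKM, was too low to be among those 8202 rows. The differences ran from -0.70 for *roX2* to 0.23 for *roX1*, with a median of -0.24, beside a median of -0.04 over the 8202 rows. Of the 7 members, 5 were lower and 2 were higher in SIN3 187HA cells. Of the 8202 rows, 4304 were lower and 3898 higher, and 7 genes are too few to be set apart from that share. The members farthest below S2 were *roX2* and *msl-3*, and these 2 were the ones that passed a 1.5-fold limit, which 19.9% of the 8202 rows passed on the lower side. A lower value in such bulk samples can mean less RNA per cell or fewer cells that express the gene, and these cannot be told apart.

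**Figure D1:**
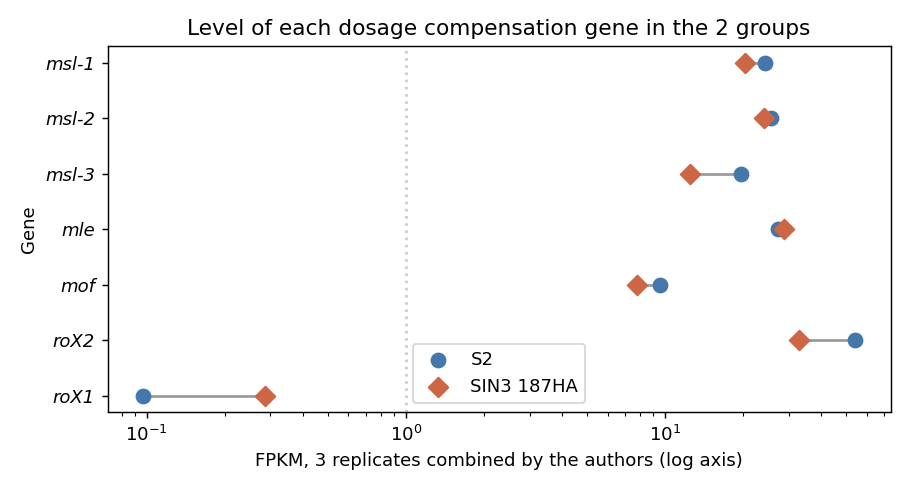
FPKM of each member in S2 cells (circles) and SIN3 187HA cells (diamonds) on a log axis, 1 value per group with the 3 replicates combined by the authors and therefore no error bar, and a dotted line at 1 FPKM. The 5 protein-coding members lie between 7.78 and 28.9 FPKM, *roX2* at 54.1 and 32.9 FPKM, and *roX1* below 1 FPKM in both groups.

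The scaffold genes had similar values in the groups. *msl-1*, which encodes the protein that joins MSL2, MSL3 and MOF, lies on chromosome arm 2L of dm3 from 18683720 to 18688796. Its level was 24.4 FPKM in S2 and 20.4 FPKM in SIN3 187HA cells, a difference of -0.24. *msl-2* encodes the RING-finger subunit that is made in males only and limits where the complex can form. Its locus is 3462216 to 3466111 on 2L, and its level was 25.7 FPKM in S2 and 24.0 FPKM in SIN3 187HA cells, a difference of -0.09. The ratio of *msl-1* to *msl-2* FPKM was 0.951 in S2 and 0.850 in SIN3 187HA cells, so the scaffold pair was present at nearly equal levels per length in each group.

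*msl-3* showed the widest gap of the protein-coding members. It encodes the chromodomain protein that recognises methylated lysine 36 of histone H3 on active genes. Its level was 19.7 FPKM in S2 and 12.5 FPKM in SIN3 187HA cells, a percent change of -36.7% and a difference of -0.62. Of the 8202 rows, 19.0% had a lower difference than *msl-3*. Its ratio to *msl-2* was 0.768 in S2 and 0.519 in SIN3 187HA cells. The locus of the row, on 3L from 7087918 to 7118633, is shared with *form3*, a formin gene that was named after its values were seen. *form3* had 16.1 FPKM in S2 and 2.03 FPKM in SIN3 187HA cells, a difference of -2.50. In the later Ensembl BDGP6 annotation *form3* is on the opposite strand and the genes share 85 exonic bases. The library kit named in the methods does not mark strand in its standard form, so fragments in that stretch cannot be assigned to either gene, and their part in the *msl-3* value was not tested.

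The enzyme genes of the complex differed little. *mle*, the RNA helicase that remodels the roX RNAs, occupies 1862362 to 1868283 of 2R. Its level was 27.2 FPKM in S2 and 28.9 FPKM in SIN3 187HA cells, a difference of 0.09 and the only positive one among the protein-coding members. *mof* encodes the MYST-family acetyltransferase of lysine 16 on histone H4, which also works outside the dosage compensation complex. Its locus is 5767868 to 5770884 on the X chromosome, and its level was 9.54 FPKM in S2 and 7.78 FPKM in SIN3 187HA cells, a difference of -0.26. It had the lowest level of the protein-coding members in each group, and the highest of them, *mle*, stood 2.85 times above it in S2 and 3.72 times above it in SIN3 187HA cells.

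Within S2 cells the order of the protein-coding members by FPKM was *mle*, *msl-2*, *msl-1*, *msl-3* and *mof*, and it was the same in SIN3 187HA cells. Without replicate values it cannot be said which neighbours in this order differ beyond their spread. Of the 8202 rows, 46.7% to 57.2% had a lower S2 level than *msl-3*, *msl-1*, *msl-2* or *mle*, so these 4 lay near the middle of the expressed genes, and 28.1% had a lower level than *mof*. The FPKM of the protein-coding members rested on roughly 1232 to 5391 fragments over the 3 S2 libraries and 1042 to 5313 over the 3 SIN3 187HA libraries. These fragment numbers were estimated from the spacing of the lowest values and the transcript lengths.

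The roX RNAs were the most unequal pair of the complex. They are noncoding RNAs from the X chromosome that are spread along it with the MSL proteins, and either of them suffices for dosage compensation in flies. *roX2*, on the X chromosome from 11473089 to 11474465, had the highest level of the 7 members, with 54.1 FPKM in S2 and 32.9 FPKM in SIN3 187HA cells. The percent change was -39.1% and the difference -0.70, and 16.8% of the 8202 rows had a lower difference. Its ratio to *msl-2*, the male-specific protein, was 2.11 in S2 and 1.37 in SIN3 187HA cells. *roX2* is annotated in BDGP6 with 6 transcripts of 522 to 1368 bases. FPKM of so short an RNA depends on which transcripts and which fragment length are assumed, and its values correspond to 800 to 2897 fragments in S2 and 506 to 1832 in SIN3 187HA cells.

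*roX1*, on the X chromosome from 3752310 to 3756730, was close to absent in both groups. It had 0.0969 FPKM in S2 and 0.286 FPKM in SIN3 187HA cells, or about 14 to 21 and 44 to 63 fragments over 3 libraries. The plain ratio of SIN3 187HA to S2 was 2.95, whereas the difference with 1 added to FPKM was 0.23. With a smaller addition of 0.01 *roX1* is therefore the only member past 2-fold. *roX2* exceeded *roX1* by a factor of 558 in S2 and 115 in SIN3 187HA cells. In BDGP6 *roX1* shares 392 exonic bases with *ec*, a gene on the opposite strand that had 6.30 FPKM in S2 and 3.74 FPKM in SIN3 187HA cells, and fragments from *ec* in that overlap cannot be told from *roX1* without strand. The dm3 locus of the *roX1* row overlaps no other row of the table. Thus the marker set for a male line, *msl-2*, *roX1* and *roX2* each above 1 FPKM, was met by *msl-2* and *roX2* but not by *roX1*.

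The X chromosome as a whole was next set beside the members, since it is what the complex acts on. The 1304 X-linked rows with at least 1 FPKM in S2 had a median difference of -0.01, with quartiles at -0.48 and 0.51. The medians of the large autosome arms, filtered in the same way, were -0.16 for 2L, -0.11 for 2R, 0.03 for 3L and -0.11 for 3R, so the X median lay inside their range. Chromosome 4 stood apart with a median of -1.35 over 74 rows. No member lies on it. Relative to the X median, *roX2* was lower by a log2 difference of -0.69, *mof* by -0.26, and *roX1* was higher by 0.24. Against the median of their own arms, *msl-3* differed by -0.65, *mle* by 0.20, *msl-1* by -0.08 and *msl-2* by 0.07.

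**Figure D2:**
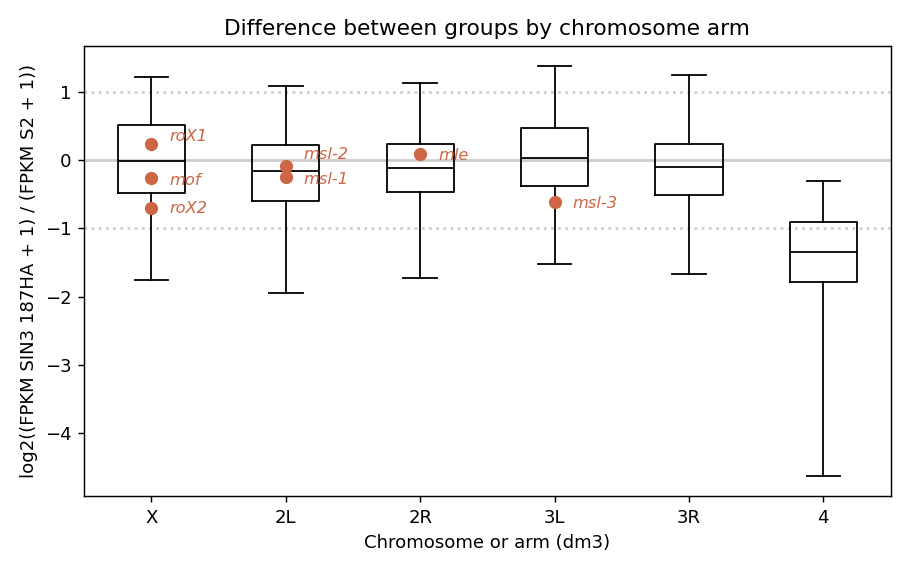
Difference between groups, log2((FPKM SIN3 187HA + 1)/(FPKM S2 + 1)), for rows with at least 1 FPKM in S2 by chromosome or arm, where boxes give the quartiles and median, whiskers the 5th and 95th percentiles, and orange points the 7 members. The X median is -0.01 and that of chromosome 4 is -1.35; *msl-3* and *roX2* lie below the lower quartile of their arms.

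The level of X-linked genes relative to autosomal genes was nearly the same in the groups. Over rows with a mean FPKM of at least 1, the median of 1383 X-linked rows was 17.1 FPKM in S2 and 17.0 FPKM in SIN3 187HA cells. The median of 6701 rows on the large autosome arms was 22.6 and 21.9 FPKM. The ratio of X to autosome medians was thus 0.758 in S2 and 0.774 in SIN3 187HA cells. The median difference of X-linked rows was above that of the pooled autosomal rows at every level examined. It was 0.18 against 0.10 at 1 to 10 FPKM, 0.01 against -0.07 at 10 to 100 FPKM and -0.07 against -0.13 at 100 FPKM and above. Each of these gaps was under 0.1, and over all levels together the medians were 0.06 against -0.04. The quartiles of X-linked rows given above describe spread between genes and do not show how precise these medians are. The X was not above every arm, since over all rows with a mean FPKM of at least 1 the median was 0.06 for X and 0.08 for 3L. Of the 1383 X-linked rows, 173 were at least 2-fold higher and 152 at least 2-fold lower in SIN3 187HA cells, 12.5% and 11.0%. Of the 6701 autosomal rows, 712 were higher and 678 lower by that limit, 10.6% and 10.1%. No number of X chromosomes was measured in either line.

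Each member was also compared with the genes around it on its chromosome. The 24 nearest rows, 12 on each side, with a mean FPKM of at least 1 and no overlap with the member had medians from -0.41 around *roX2* to 0.21 around *mle*. Over all 8202 rows, 4304 were lower in SIN3 187HA cells. Around *roX2* 18 of the 24 neighbours were lower in SIN3 187HA cells, and *roX2* lay -0.29 from their median, with 7 of the 24 lower still. Around *roX1* the median was -0.37 with 19 of 24 below 0, so *roX1* and its surroundings differed in sign. Around *msl-2* 21 of 24 neighbours were lower, with a median of -0.31, and *msl-2* lay 0.22 above it. *msl-3* lay -0.48 from the median of its neighbours, which was -0.14, and 5 of the 24 were lower than *msl-3*. *msl-1*, *mle* and *mof* lay within 0.13 of the medians around them, with differences from those medians of -0.03, -0.13 and -0.08. The medians depended on the width of the window. With 25 rows on each side they were -0.003 around *msl-1*, 0.05 around *mle* and -0.11 around *roX2*, and with 6 rows they were 0.06 around *mle* and -0.31 around *msl-3*. With 6, 12 or 25 rows on each side, 0 of the 7 members differed from their surroundings by 2-fold. The share of all rows that differ so from their own neighbours was not computed, so this count cannot be read as a property of the members.

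**Figure D3:**
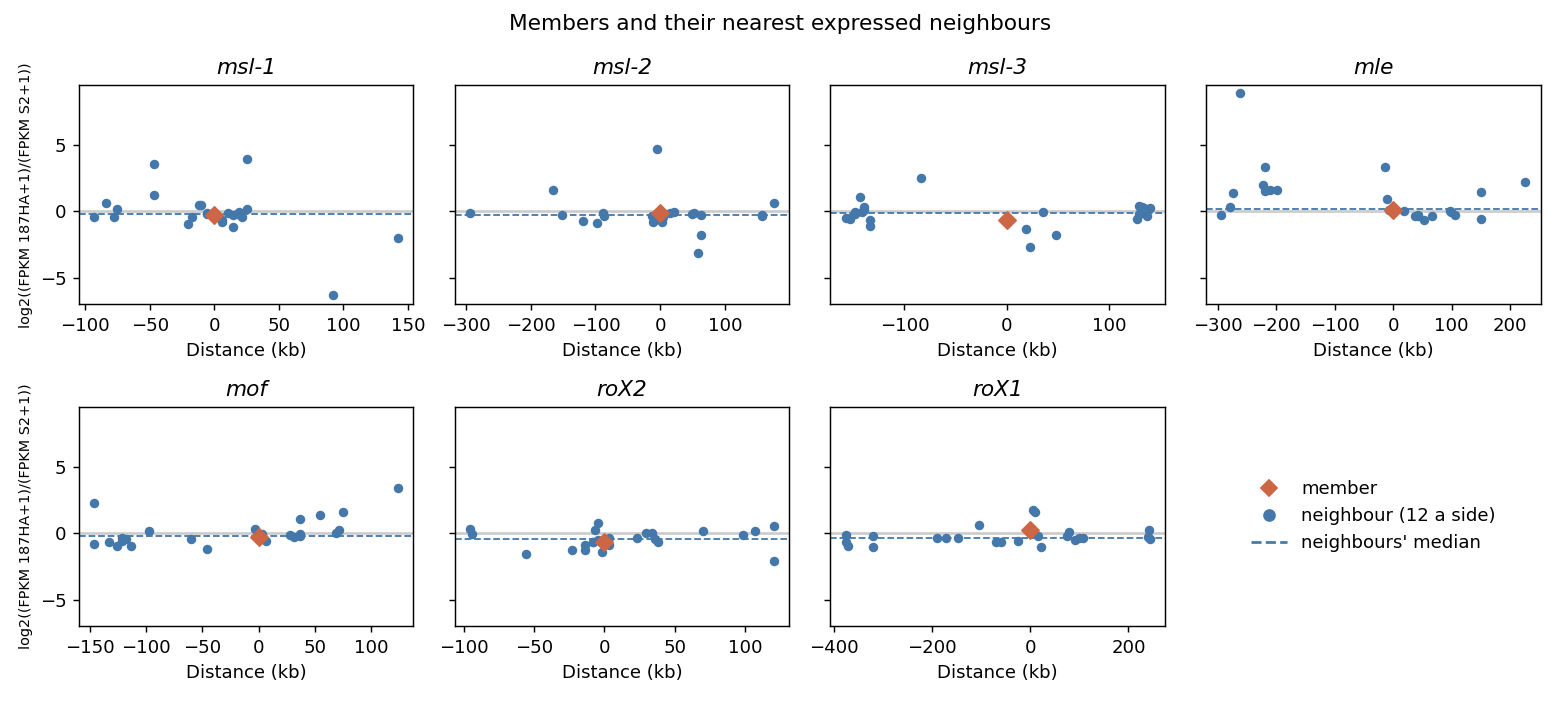
Difference between groups, log2((FPKM SIN3 187HA + 1)/(FPKM S2 + 1)), for each member (diamond) and its 24 nearest rows with a mean FPKM of at least 1 (circles) by distance in kb between locus centres, with the median of the neighbours dashed. The dashed medians run from -0.41 around *roX2* to 0.21 around *mle*, and single neighbours reach from -6.32 to 8.87.

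Related genes were drawn from 5 lists that together hold 33 genes, all of which were found in the table. The lists cover chromatin partners, RNA-binding regulators, another complex that contains MOF, MYST acetyltransferases with *Sir2*, and sex determination. Not all of the 33 work with the dosage compensation complex. Of the 33, 1 gene passed the 2-fold limit, on the lower side. Of the 8202 rows, 10.9% passed it on that side and 10.9% on the higher side. Of the 33, 32 had a mean FPKM of at least 1 and so are among those rows. The median difference of the 33 was -0.19 with 22 genes lower and 11 higher, where 4304 of the 8202 rows were lower and 3898 higher. The gene past 2-fold was *Hrb27C*, whose product Hrp48 binds RNA and helps to repress translation of *msl-2* mRNA in females. *Hrb27C* had 467 FPKM in S2 and 208 FPKM in SIN3 187HA cells, a difference of -1.17, and its neighbours had a median of -0.25. The other 5 genes of its list, RNA-binding regulators of *msl-2* or *mle*, lay between -0.36 and 0.47. *Sxl*, the female switch gene that blocks *msl-2* and is spliced to a form without function in males, had 49.7 FPKM in S2 and 44.0 FPKM in SIN3 187HA cells, a difference of -0.17. Gene-level FPKM do not separate the male and female splice forms of *Sxl*.

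Of the 8 chromatin partners, none was past 2-fold and 5 were lower. *Clamp*, listed as *CG1832*, encodes the zinc-finger protein that binds GA-rich sites and recruits the complex to X. It had 117 FPKM in S2 and 76.0 FPKM in SIN3 187HA cells, a difference of -0.61, while the median of its neighbours was -0.67. Its row shares a locus with 3 other rows. *JIL-1*, a histone H3 kinase enriched on the male X, had 17.9 FPKM in S2 and 16.4 FPKM in SIN3 187HA cells, a difference of -0.12. The lowest of this list was *Set2*, the methyltransferase that makes the mark MSL3 reads, named after its values were seen. *Set2* had 17.2 FPKM in S2 and 8.40 FPKM in SIN3 187HA cells, a difference of -0.95, and its neighbours on X had a median of -0.90. With 0.1 or 0.01 added to FPKM in place of 1, *Set2* also passed the 2-fold limit.

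The NSL complex, a second assembly that contains MOF and acts at promoters on all chromosomes, had the lowest median of the lists. Its 6 genes other than *mof* had a median of -0.53, with 5 lower, 1 higher and none past 2-fold. The values ran from -0.75 for *wds*, which had 54.5 FPKM in S2 and 31.9 FPKM in SIN3 187HA cells, to 0.60 for *Rcd5*, which had 41.3 and 63.1 FPKM. *nsl1*, the scaffold of the NSL complex and listed as *wah*, had 42.7 FPKM in S2 and 26.3 FPKM in SIN3 187HA cells, a difference of -0.68. *wds*, *Rcd5* and *nsl1* were picked out with their values known, as were the MYST genes and *dsx* mentioned next. The other MYST acetyltransferases *chm*, *enok* and *Tip60* and the deacetylase *Sir2*, which removes acetyl groups from histone H4, had a median of -0.09 and none was past 2-fold. The 10 sex determination genes had a median of -0.21, with 7 lower and none past 2-fold. Of these, *dsx*, the last switch of the cascade, was below 1 FPKM in both groups, with 0.225 FPKM in S2 and 0.477 FPKM in SIN3 187HA cells, and with 0.01 added to FPKM in place of 1 it was past 2-fold on the higher side.

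**Figure D4:**
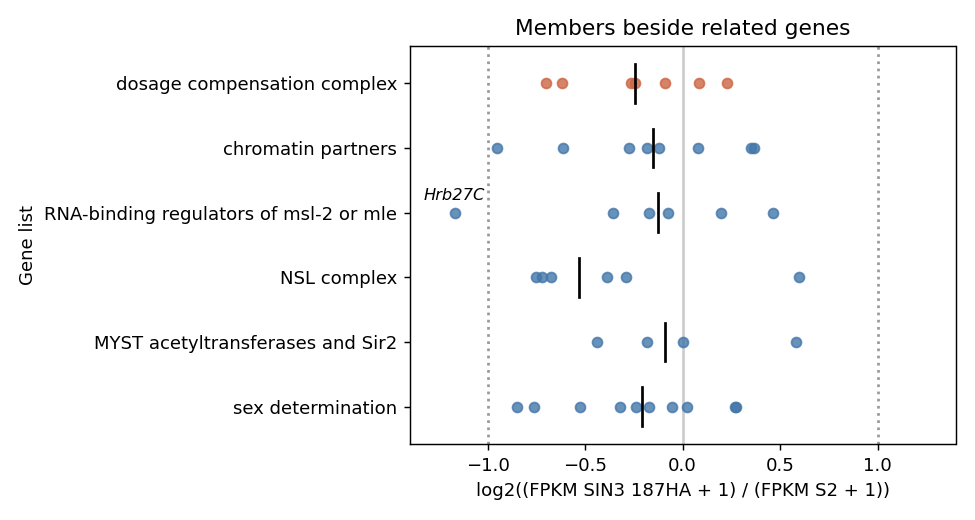
Difference between groups, log2((FPKM SIN3 187HA + 1)/(FPKM S2 + 1)), for the 7 members (orange) and the genes of 5 related lists (blue), with a black bar at each median and dotted lines at 2-fold. The members run from -0.70 to 0.23 around a median of -0.24; *Hrb27C*, at -1.17, is the only point beyond a dotted line.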

How the data were processed

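RNA-seq of mRNA purified from total RNA compared S2 with SIN3 187HA cells (3 replicates each, grouped by sample title). Per the paper's methods, the authors sequenced TruSeq libraries in paired-end mode, aligned the reads to dm3 with Bowtie2/Tophat, estimated RefSeq genes with Cufflinks and compared groups with cuffdiff at default parameters (versions are not given in the sources used here). The authors deposited 1 FPKM value per gene row and group, scaled by cuffdiff over the combined replicates, so no replicate spread or count model was available. The deposited fold changes, test statistics, p-values and q-values are the authors' comparison and were not used.

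From the FPKM values, log2 differences with a pseudocount of 1, medians, counts past 2-fold and medians of the 12 nearest rows on each side were computed (Python 3.11.15, pandas 2.3.3), after the functions were tested on simulated data. Rows with a mean FPKM of at least 1 were the background. For the X and the arms the filter was an S2 FPKM of at least 1. Symbols were matched by name, else by a RefSeq synonym that is no other gene's symbol (a rule settled after a first matching was seen). Ensembl release 115 (BDGP6) gave transcript lengths, strands and exon overlaps only, since its coordinates are not those of dm3. Depth was estimated from the median of FPKM times length in kb (less a fragment of 200 bases), up to 0.03 and taken as 1 fragment over the 3 libraries, in genes with a single transcript over 1500 bases (108 genes in S2, 76 in SIN3 187HA). Named genes were the members, list genes past 2-fold, *Clamp*, *JIL-1*, *Sxl* and *Sin3A*, and others are marked. Members and lists were chosen with earlier results of these data known.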

Additional observations from a re-analysis of the deposited data

How the results depend on the processing

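No paired analysis was possible because the table holds 1 combined value per group, and for the same reason no replicate could be left out. Every member kept its sign under the pseudocounts of 0.1 and 0.01 and the 3 other scalings, with 5 members lower and 2 higher each time. The scalings moved the median of all rows by at most 0.08. With FPKM scaled to the same sum without *Sin3A* and the 100 highest rows, *msl-2* was at only -0.003, so its sign is not firm. The median of the members was -0.16 under that scaling. The log2 difference of *roX1* was 0.97 with a pseudocount of 0.1 and 1.47 with 0.01, and under the latter 1 member passed the 2-fold limit. With a limit of 1.5-fold 2 members passed. Medians were taken to have moved when they shifted by more than 0.1, and single genes when they crossed 2-fold or shifted by more than 1.5-fold. Under that rule 66 of 75 values kept their place, and the other 5 that moved were neighbourhood medians. A shift of at most 0.08 was too small to move any of these values under the rule, so the scalings add little to this count. The median of X-linked rows ran from -0.10, with an S2 FPKM of at least 10 as the filter, to 0.07, with FPKM scaled to the same sum without *Sin3A* and the 100 highest rows. At 14 to 21 fragments in S2 and 44 to 63 in SIN3 187HA, *roX1* is the member that depth limits most.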
